A study of Mus musculus with 18 samples.

Results

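The insulin-like growth factor (IGF) system was followed in ribosome-bound RNA of endothelial cells and in whole-tissue RNA of mouse choroid, retina and brain. The 10 genes are those whose symbol in the 3 deposited tables is Igf1, Igf2, Igf1r, Igf2r, Igfbp2, Igfbp3, Igfbp4, Igfbp5, Igfbp6 or Igfbp7. All 10 stand in each table, out of 7569 genes in Choroid, 12827 in Retina and 13957 in Brain, and belong to the 7270 genes that the 3 tables share. There are 6 groups of 3 libraries: Choroid Positive, Choroid Input, Retina Positive, Retina Input, Brain Positive and Brain Input. Every group came from mice of the genotype Cdh5(PAC)-cre/ERT2+; NuTRAP+ that had been given tamoxifen, and the labels give neither age, sex nor the number of animals behind a library. Cdh5(PAC)-cre/ERT2 is a recombinase that tamoxifen activates and that the promoter of vascular endothelial cadherin drives, and NuTRAP is a reporter that, once recombined, labels nuclei and puts a GFP tag on ribosomes. In translating ribosome affinity purification (TRAP), an antibody against GFP pulls the tagged ribosomes down with the RNA they carry, which is the Positive fraction. The Input fraction is a portion of the same homogenate set aside beforehand, so it also carries the endothelial RNA. The Positive fraction is aimed at cells in which the cadherin promoter drove recombination, and it also held RNA of marker genes of other cell types.

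Igf1 and Igf2 encode small secreted peptides related to insulin, and both act through the receptor tyrosine kinase that Igf1r encodes. Igf2r encodes the cation-independent mannose 6-phosphate receptor, which has no kinase and carries Igf2 to lysosomes. The proteins of the Igfbp genes bind IGFs outside cells, prolong their life in the circulation, and hold them back from the receptor or release them near it when proteases cut the binding protein. Igfbp7 binds IGFs only weakly and is a protein of vascular basement membranes. Vessels of brain and retina form a tight barrier, whereas the capillary bed of the choroid, the vascular layer behind the retina, is fenestrated.

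Listed counts summed to between 713733 and 10031274 per Choroid library, 12325658 and 36157140 per Retina library, and 28128866 and 43219831 per Brain library. Choroid Positive 2 was the shallowest. The 10 endothelial markers checked (Cdh5, Pecam1, Tie1 and the others) were all higher in Positive than in Input in all 3 tissues. Their summed level was 12849.7 to 14678 CPM (the standard count unit normalised to library size, here after TMM scaling) in Choroid Positive against 1479 to 2422 CPM in Choroid Input. It was 2617, 2769.5 and 5307 CPM in Retina Positive 1, 2 and 3 against 93.5 to 115 CPM in Retina Input, so Retina Positive 3 stood apart from the other 2. In Brain it was 5188 to 5767 CPM in Positive against 151 to 179 CPM in Input. A gene was listed, per the file headers, where all libraries of at least 1 fraction reached a raw value of 50. Igfbp3 in Retina met this through Positive alone, Igfbp6 in Retina and Igf1, Igf2r and Igfbp2 in Choroid through Input alone, and these genes were thus favoured to differ in that direction. Fewer cells of a type and less RNA per cell cannot be told apart in such bulk fractions, and the Positive and Input fractions also differ in kind, as ribosome-bound and whole RNA.

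Igfbp3 and Igfbp7 were higher in Positive than in Input in each of the 3 tissues, by log2 fold changes of 3.07 and 1.71 in Choroid, 5.12 and 4.68 in Retina, and 3.37 and 4.67 in Brain. Of the other 8, Igf1, Igf2, Igf1r, Igfbp2, Igfbp4 and Igfbp5 fell in Choroid and rose in Brain, Igfbp6 rose in Brain and passed the test in neither other tissue, and Igf2r passed it in none. In Choroid 2 of the 10 genes rose, 6 fell and 2 did not pass the test (edgeR quasi-likelihood F test, Benjamini-Hochberg adjusted p under 0.05). Of all 7569 genes tested there, 36.6% were called, 16.3% as higher and 20.2% as lower. In Retina 3 rose, 1 fell and 6 did not pass, beside 26.1% of 12827 genes called, 15.3% as higher and 10.8% as lower. In Brain 9 rose, none fell and Igf2r did not pass, beside 78.1% of 13957 genes called, 38.3% as higher and 39.7% as lower. These fits did not pair the fractions by replicate number. With that number as a block, Igfbp2 was also called lower in Retina, and no other call of the 10 genes changed. The median log2 fold change over the 10 genes was -1.17 in Choroid, -0.05 in Retina and 2.26 in Brain, and over all genes tested it was -0.01, -0.03 and -0.02. Igf1 and Igfbp2 in Choroid were listed through Input alone and Igfbp3 in Retina through Positive alone, which favoured the direction of their calls.

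**Figure D1:**
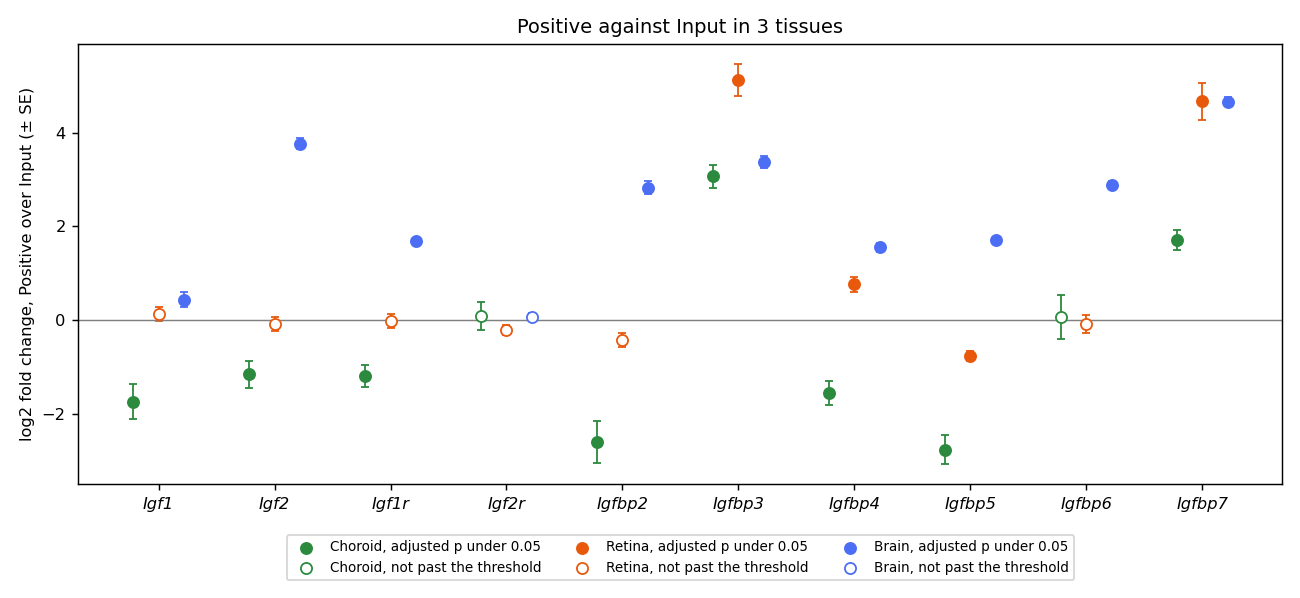
Fitted log2 fold change of Positive over Input (y axis, points) with its SE (bars) for the 10 genes (x axis) in Choroid, Retina and Brain. Filled points had an adjusted p under 0.05, and Igfbp3 and Igfbp7 are the genes with filled points above 0 in every tissue.

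Both ligand genes fell in Choroid, did not pass the test in Retina and rose in Brain. Igf2 had 187, 115 and 85.8 CPM in Choroid Positive, against 336, 324 and 213 CPM in Choroid Input. All Choroid Positive libraries were below all Choroid Input libraries, and the log2 fold change was -1.15 ± 0.29, adjusted p = 0.00825. In Retina the libraries of the fractions overlapped, with 31.2, 41.0003 and 44.5 CPM in Retina Positive, against 41.98, 43.4 and 37.9 CPM in Retina Input (log2 fold change -0.08 ± 0.14, adjusted p = 0.705). Brain showed the reverse of Choroid, with 1869, 2523 and 2287 CPM in Brain Positive, against 148, 159.8 and 182 CPM in Brain Input. The groups lay far apart there, at 13.6-fold higher in Positive (log2 fold change 3.77 ± 0.12, adjusted p = 2.24e-09). Igf2 is imprinted and its growth factor is best known from the fetus, while in the adult brain its transcript is known from meninges and choroid plexus.

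Igf1, the ligand that growth hormone regulates, averaged below Igf2 per exon length in every group. Its values were 16.5, 33.4 and 12.8 CPM in Choroid Positive, against 73.1, 56.9 and 62.01 CPM in Choroid Input. The Choroid groups did not overlap, although Choroid Positive 2, the shallowest library, lay above the other Positive libraries (log2 fold change -1.74 ± 0.37, adjusted p = 0.00281). The listing of Igf1 in Choroid through Input alone favoured this direction. Retina gave 31.5, 32.1 and 23.6 CPM in Retina Positive, against 24.8, 28.3 and 26.3 CPM in Retina Input, with overlapping groups and a log2 fold change of 0.13 ± 0.14, adjusted p = 0.534. In Brain it reached 10.3, 10.7 and 14.2 CPM in Brain Positive, against 8.60, 7.55 and 9.90 CPM in Brain Input, a small difference that passed the test at 0.44 ± 0.16, adjusted p = 0.0297. The Brain call was lost without Brain Input 1 (adjusted p = 0.0614), without Brain Input 2 (0.108) or without Brain Positive 3 (0.137).

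Of the receptor genes, Igf1r fell in Choroid and rose in Brain, as Igf2 did. It had 92.2, 108 and 69.6 CPM in Choroid Positive, against 196, 239 and 175 CPM in Choroid Input, without overlap, at a log2 fold change of -1.19 ± 0.23, adjusted p = 0.00165. Retina values were 154, 140.4 and 217 CPM in Retina Positive, against 178, 174 and 166 CPM in Retina Input, and Retina Positive 3 was above every Input library while the other Positive libraries were below them (log2 fold change -0.01 ± 0.15, adjusted p = 0.958). In Brain the values were 216, 214 and 207 CPM in Brain Positive, against 64.99, 68.7 and 62.9 CPM in Brain Input. That is 3.24-fold higher in Brain Positive, with the libraries of each fraction close together (log2 fold change 1.70 ± 0.07, adjusted p = 7.41e-09). Igf2r, the clearance receptor, passed the test in none of the tissues, at log2 fold changes of 0.09 ± 0.30 in Choroid, -0.21 ± 0.11 in Retina and 0.07 ± 0.07 in Brain (adjusted p = 0.839, 0.186 and 0.374). Its Choroid Positive libraries were at 108, 44.6 and 108 CPM, with Choroid Positive 2 the low one, against 74.6 to 88.5 CPM in Choroid Input. In Brain it was at 43.2 to 49.4 CPM in Positive and 42.8 to 44.1 CPM in Input.

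Igfbp3, which encodes the main carrier of IGFs in serum, had the highest fitted log2 fold change of the 10 genes in Choroid and in Retina. In Choroid it had 3937, 3951 and 3212 CPM in Choroid Positive, against 501, 343 and 477 CPM in Choroid Input. Only 0.198% of the Choroid genes had a higher log2 fold change than its 3.07 ± 0.25, adjusted p = 5.14e-06. In Retina it had 47.8, 61.1 and 109 CPM in Retina Positive, against 1.77, 2.23 and 2.30 CPM in Retina Input. Retina Positive 3 was the highest and the Input level was near the listing minimum (lowest raw value 49.3), and the log2 fold change was 5.12 ± 0.34, adjusted p = 6.55e-05. The listing of Igfbp3 in Retina through Positive alone favoured a high value, and its rank among the 10 genes was not tested. In Brain it had 112, 157 and 140.0 CPM in Brain Positive, against 11.8, 13.6 and 14.2 CPM in Brain Input, at 3.37 ± 0.13, adjusted p = 7.97e-09. Positive and Input did not overlap in any tissue.

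Igfbp7 rose 3.28-fold in Choroid, 25.5-fold in Retina and 25.4-fold in Brain. Its values were 2517, 2932 and 2875 CPM in Choroid Positive, against 878, 716 and 944 CPM in Choroid Input (log2 fold change 1.71 ± 0.22, adjusted p = 8.10e-05). In Retina they were 253, 268 and 648 CPM in Retina Positive, against 13.2, 15.1 and 17.7 CPM in Retina Input. Retina Positive 3 was again the highest library, as for the endothelial markers, and the fitted log2 fold change was 4.68 ± 0.40, adjusted p = 1.43e-04. Brain had 568, 645 and 690.2 CPM in Brain Positive, against 23.1, 24.1 and 27.6 CPM in Brain Input (log2 fold change 4.67 ± 0.10, adjusted p = 3.02e-10). Annotated exons of Igfbp7 overlap those of Polr2b on the opposite strand, and those of Igf2 overlap Igf2os on the opposite strand and Gm49394 on the same strand. Whether strand was used in counting is not given in the sources used here, so reads of such pairs may not have been told apart.

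The promoters of Igfbp3 and Igfbp7, the genes raised in Positive in every tissue, are shown here beside those of Igfbp2 and Igfbp5, close neighbours in the genome which both fell in Choroid and rose in Brain. Each is the 250 bases before the gene's start in the RefSeq promoter table on GRCm38.p6, written 5′ to 3′ on the gene's own strand. The RefSeq span of Igfbp3 reaches further upstream, to position 7215498, so its window lies before an internal start and not before the outermost one. Capitals mark matches on either strand to 5 motifs. GGGCGG is the GC box that the factor Sp1 binds. TATAAA is the usual form of the TATA box at core promoters, and TATATA is another of its forms. CGGAAG is the core of the sites that ETS transcription factors bind in many endothelial genes. CACGTG is an E box, a site of basic helix-loop-helix factors.
Igfbp3, chr11:7213924-7214173, minus strand: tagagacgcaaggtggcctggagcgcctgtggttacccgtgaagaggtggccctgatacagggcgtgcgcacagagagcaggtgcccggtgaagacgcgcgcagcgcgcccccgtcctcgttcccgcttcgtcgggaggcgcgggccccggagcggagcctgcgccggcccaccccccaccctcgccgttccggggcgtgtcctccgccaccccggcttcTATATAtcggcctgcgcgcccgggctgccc
Igfbp7, chr5:77408046-77408295, minus strand: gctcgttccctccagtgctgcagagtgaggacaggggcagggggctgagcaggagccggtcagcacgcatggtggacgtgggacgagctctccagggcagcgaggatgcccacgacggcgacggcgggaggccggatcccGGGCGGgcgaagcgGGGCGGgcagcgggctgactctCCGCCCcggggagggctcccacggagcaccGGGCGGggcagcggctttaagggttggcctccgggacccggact
Igfbp2, chr1:72824230-72824479, plus strand: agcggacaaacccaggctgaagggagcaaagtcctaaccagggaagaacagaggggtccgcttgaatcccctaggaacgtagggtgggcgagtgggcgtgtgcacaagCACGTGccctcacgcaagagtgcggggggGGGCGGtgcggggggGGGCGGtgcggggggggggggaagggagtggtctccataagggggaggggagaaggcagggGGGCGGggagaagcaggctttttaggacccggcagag
Igfbp5, chr1:72874866-72875115, minus strand: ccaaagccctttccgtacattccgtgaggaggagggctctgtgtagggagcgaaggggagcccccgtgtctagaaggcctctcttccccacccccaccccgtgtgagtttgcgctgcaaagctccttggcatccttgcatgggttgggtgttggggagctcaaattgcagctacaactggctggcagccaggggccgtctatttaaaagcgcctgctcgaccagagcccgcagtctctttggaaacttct
The Igfbp3 window held 1 TATATA, and 5.25% of 32851 RefSeq promoter windows of the same length hold it. The Igfbp7 window held 4 GGGCGG and that of Igfbp2 held 3, and 32.7% of all windows hold at least 1. Igfbp2 also held 1 CACGTG, found in 6.02% of windows. The Igfbp5 window held no match to the 5 motifs. Over all windows TATAAA is in 12.4% and CGGAAG in 13.6%, and no 2 matches overlapped. GC content was 73.2% for Igfbp3, 74.0% for Igfbp7, 67.2% for Igfbp2 and 58.8% for Igfbp5, against a median of 52.4% over all windows. RefSeq has 2 starts for Igfbp2, and the upstream one is shown. The window before the other start held no match to the 5 motifs.

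Igfbp2 and Igfbp5 lie on chromosome 1 with 5593 bases between them, on opposite strands. Igfbp2, a binding protein that is abundant in the cerebrospinal fluid, had 16.8, 46.1 and 23.8 CPM in Choroid Positive, against 78.6, 235 and 168 CPM in Choroid Input. The Choroid Input libraries differed among themselves but all stayed above Positive (log2 fold change -2.60 ± 0.45, adjusted p = 6.54e-04). The listing of Igfbp2 in Choroid through Input alone favoured this direction. Retina gave 28.98, 21.05 and 22.9 CPM in Retina Positive, against 35.8, 27.96 and 33.96 CPM in Retina Input. The Retina libraries overlapped, at a log2 fold change of -0.42 ± 0.15, adjusted p = 0.0808. Once replicate number was blocked it was called lower in Retina (-0.43, adjusted p = 0.0387), and also without Retina Positive 1 (-0.53, adjusted p = 0.0409). Brain had 596, 806 and 669 CPM in Brain Positive, against 112, 81.4 and 99.5 CPM in Brain Input, 7.08-fold higher in Positive (2.82 ± 0.14, adjusted p = 4.45e-08).

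Igfbp5, which encodes a binding protein of the extracellular matrix, fell in Choroid and Retina and rose in Brain. Its Choroid values were 784, 686 and 595 CPM in Choroid Positive, against 6219.6, 2898 and 4882 CPM in Choroid Input, at -2.76 ± 0.31, adjusted p = 2.96e-05 on the log2 scale. No gene of the 10 fell further in Choroid. In Retina it had 27.9, 25.2 and 31.1 CPM in Retina Positive, against 44.9, 49.9 and 49.01 CPM in Retina Input, without overlap (-0.77 ± 0.11, adjusted p = 0.00160), and it was the one gene of the 10 called lower there. In Brain it had 556, 632 and 568 CPM in Brain Positive, against 167, 181 and 192 CPM in Brain Input (1.70 ± 0.08, adjusted p = 2.26e-08).

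Igfbp4, whose protein holds IGFs until the protease Pappa cuts it, had 579, 732 and 618 CPM in Choroid Positive, against 2043, 1278 and 2323 CPM in Choroid Input, a fall without overlap (-1.55 ± 0.25, adjusted p = 4.72e-04). In Retina it had 64.5, 55.3 and 87.1 CPM in Retina Positive, against 41.5, 37.6 and 43.1 CPM in Retina Input and rose (0.76 ± 0.16, adjusted p = 0.0104). That call was lost without Retina Input 2 (0.71, adjusted p = 0.0550). It rose in Brain as well, with 266, 239 and 201 CPM in Brain Positive, against 82.9, 78.3 and 79.1 CPM in Brain Input (1.55 ± 0.10, adjusted p = 2.89e-07). Igfbp6, which encodes a binding protein with a preference for Igf2, rose in Brain and passed the test in neither Choroid nor Retina. It had 366, 387 and 351 CPM in Brain Positive, against 52.2, 51.6 and 45.3 CPM in Brain Input (2.89 ± 0.08, adjusted p = 8.23e-10). Its Choroid Positive libraries spread from 42.9 to 247 CPM, against 83.1 to 174 CPM in Choroid Input (0.07 ± 0.48, adjusted p = 0.927). In Retina it was low in both fractions, at 3.68 to 4.13 CPM in Positive against 3.92 to 4.50 CPM in Input (-0.09 ± 0.19, adjusted p = 0.776).

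**Figure D2:**
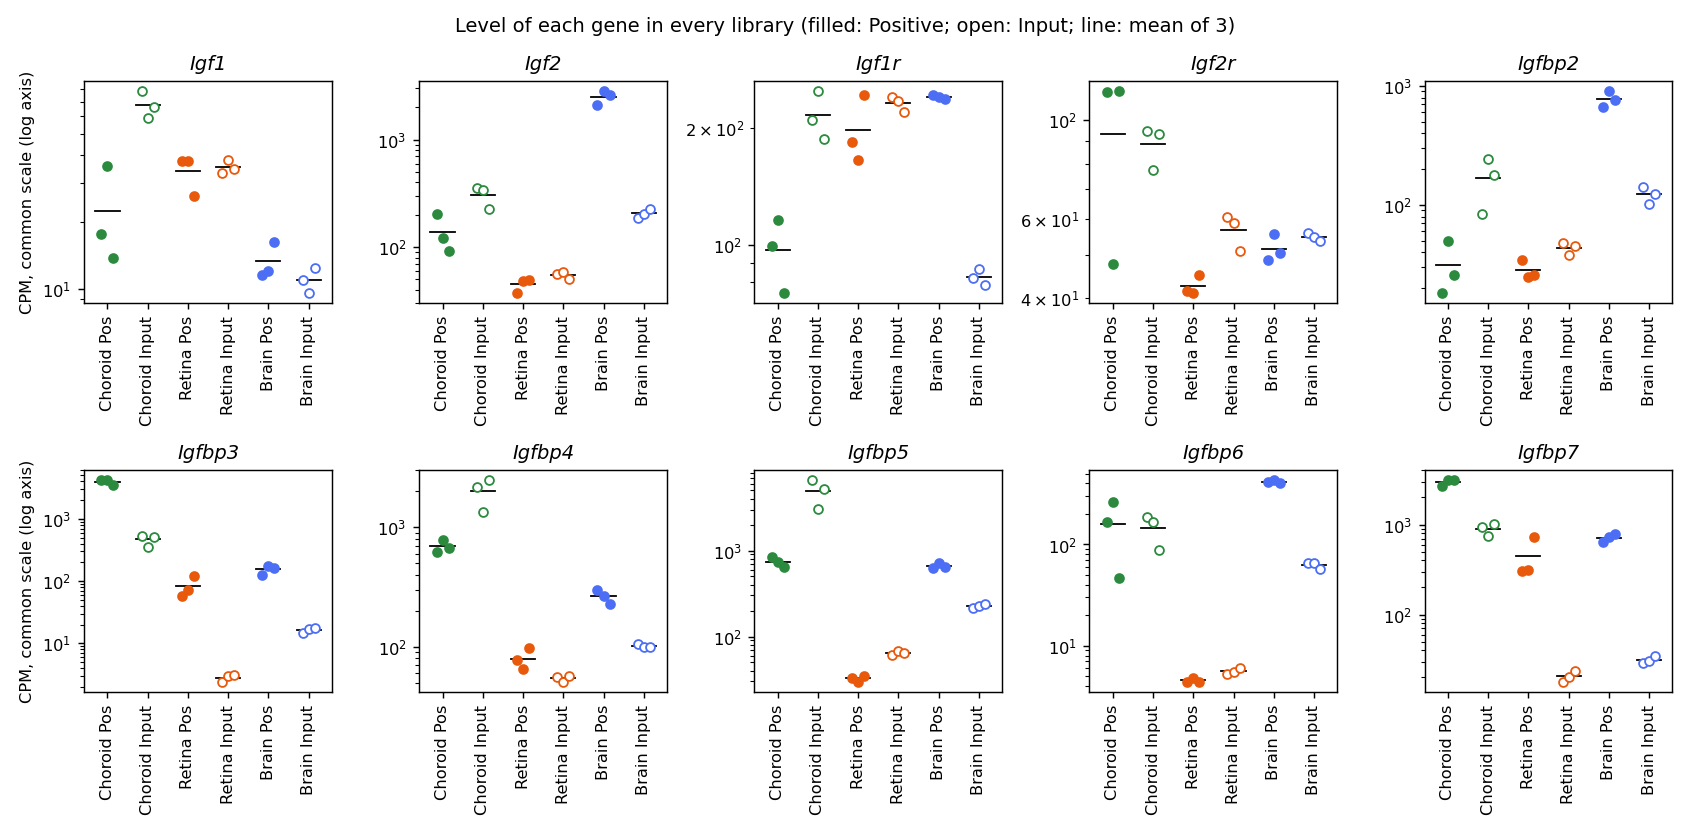
CPM of each gene on the common scale of all 18 libraries (y axis, log scale) in every library of the 6 groups (x axis), with Positive filled, Input open and the mean of 3 libraries as a line. Igf2, Igfbp2 and Igfbp6 are highest in Brain Positive, and Igfbp3 and Igfbp7 in Choroid Positive.

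The log2 difference of Positive over Input was compared between tissues as an interaction in a fit of all 18 libraries, where each tissue enters 2 of the 3 comparisons. The median log2 fold change of the endothelial markers was itself 2.83 in Choroid, 6.21 in Retina and 5.26 in Brain. The part of this spread in the differences below was not tested. Choroid minus Retina was lower for 8 of the 10 genes and higher for none, beside 45% of 7270 genes called, 21.7% as higher and 23.3% as lower. Igfbp7 (-2.72 ± 0.35, adjusted p = 9.25e-06) and Igfbp4 (-2.09 ± 0.27, adjusted p = 8.89e-06) differed most. Choroid minus Brain was lower for 8 genes and higher for none, beside 51.8% called, 21.4% as higher and 30.5% as lower. The difference was -5.32 ± 0.46 for Igfbp2, -4.73 ± 0.33 for Igf2 and -4.29 ± 0.29 for Igfbp5 (adjusted p = 4.84e-08, 3.51e-09 and 2.74e-09). Retina minus Brain was lower for 6 genes and higher for Igfbp3, beside 29.8% called, 18.8% as lower and 11% as higher. Igfbp3 was at 1.69 ± 0.34, adjusted p = 0.00130, and Igf2 at -3.91 ± 0.32, adjusted p = 1.11e-07. The listing of Igfbp3 in Retina through Positive alone favoured its direction, as did that of Igfbp2 in Choroid through Input alone. Over all genes Retina minus Brain split into 802 higher and 1368 lower calls, and into 1402 higher and 885 lower with DESeq2's size factors, which moved the median of all genes by 0.22.

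Some genes did not pass this comparison, and some calls depended on single libraries. Igfbp3 gave -0.13 ± 0.31, adjusted p = 0.756 for Choroid minus Brain, and Igfbp7 gave -0.06 ± 0.35, adjusted p = 0.914 for Retina minus Brain. Without Retina Positive 3 the Igfbp7 difference passed at -0.60 (adjusted p = 0.0366). The lower call of Igfbp4 for Retina minus Brain (-0.84 ± 0.27, adjusted p = 0.0240) was lost with DESeq2's size factors (-0.62, adjusted p = 0.0835), by DESeq2's Wald test (adjusted p = 0.0629) and over the better-expressed genes, those not below the median level (adjusted p = 0.0724). It was also lost without Retina Positive 1 or 2, Retina Input 3, Brain Positive 1 or Brain Input 2 or 3 (adjusted p = 0.0513 to 0.0661). That of Igf2 for Choroid minus Retina (-0.82 ± 0.32, adjusted p = 0.0446) was lost without any single 1 of 12 of the 18 libraries, namely Choroid Positive 2 or 3, Choroid Input 1 or 2, Retina Positive 2 or 3, Retina Input 1, 2 or 3, Brain Positive 3 or Brain Input 2 or 3 (adjusted p = 0.0517 to 0.124). Igf2r passed in no pair, but without Choroid Positive 2 it was higher in Choroid minus Retina (0.80, adjusted p = 6.71e-04) and in Choroid minus Brain (0.47, adjusted p = 0.0199).

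Levels in the Positive fractions were compared directly across tissues, on the common scale and in a fit of the 9 Positive libraries. Printed levels were scaled over all 18 libraries and log2 fold changes over the 9 libraries of a fraction. Ratios of printed levels can thus differ from the fitted values. The 3 tables were filtered separately by the authors. Choroid Positive against Retina Positive was higher for 7 of the 10 genes and lower for Igf1r, beside 62.4% of genes called, 31.4% as higher and 31% as lower. Choroid Positive against Brain Positive was higher for 4 and lower for 4, beside 52.9% called, 28.9% as higher and 24% as lower. Retina Positive against Brain Positive was higher for Igf1 and lower for 6, beside 57.1% called, 29.5% as higher and 27.6% as lower.

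Igfbp3 averaged 3977 ± 446 CPM in Choroid Positive, 83.4 ± 33.8 CPM in Retina Positive and 154 ± 25.5 CPM in Brain Positive (SD, n = 3 each). Choroid stood 48.5-fold above Retina (5.60 ± 0.32 on the log2 scale) and 28.9-fold above Brain (4.85 ± 0.31), with adjusted p = 2.92e-07 and 8.17e-07. Retina was below Brain (-0.75 ± 0.27, adjusted p = 0.0327), a call lost without Brain Positive 2 or 3 or Retina Positive 1 or 2 (adjusted p = 0.0979, 0.0720, 0.0985 and 0.0966). Igfbp7 averaged 2983 ± 239 CPM in Choroid Positive, 448 ± 241 CPM in Retina Positive and 717 ± 75.7 CPM in Brain Positive. Choroid was the highest (2.76 ± 0.32 over Retina, 2.22 ± 0.32 over Brain, adjusted p = 3.05e-05 and 1.99e-04), and Retina over Brain was -0.54 ± 0.30, adjusted p = 0.149. Without Retina Positive 3 it was -1.15 (adjusted p = 1.37e-04).

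Igf2, Igfbp2 and Igfbp6 were highest in Brain Positive. Igf2 averaged 139 ± 56.3 CPM in Choroid Positive, 45.02 ± 6.86 CPM in Retina Positive and 2516 ± 376 CPM in Brain Positive, and each pair of tissues differed (1.67 ± 0.27 for Choroid over Retina, -3.995 ± 0.29 for Choroid over Brain, -5.67 ± 0.31 for Retina over Brain). Igfbp2 averaged 31.05 ± 16.3 CPM in Choroid Positive, 28.3 ± 5.43 CPM in Retina Positive and 779.7 ± 118 CPM in Brain Positive. Choroid and Retina overlapped (-0.03 ± 0.30, adjusted p = 0.936), and both lay far below Brain (-4.68 ± 0.31 and -4.64 ± 0.28). Igfbp6 averaged 159 ± 109 CPM in Choroid Positive, 4.55 ± 0.258 CPM in Retina Positive and 416 ± 16.98 CPM in Brain Positive. Retina was 83.5-fold below Brain (-6.38 ± 0.51, adjusted p = 4.28e-06). Choroid below Brain (-1.28 ± 0.42, adjusted p = 0.0237) was lost without Brain Positive 1 or 2 or Choroid Positive 1 (adjusted p = 0.0519, 0.0569 and 0.0539).

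Igfbp5 overlapped between Choroid and Brain Positive and was low in Retina Positive. It averaged 739.8 ± 101 CPM in Choroid Positive, 32.6 ± 2.72 CPM in Retina Positive and 661 ± 43.9 CPM in Brain Positive. Choroid over Brain was 0.33 ± 0.14, adjusted p = 0.0769, while Choroid over Retina was 4.53 ± 0.17, adjusted p = 2.78e-08. Without Choroid Positive 3 the Choroid and Brain levels differed (0.42, adjusted p = 0.0336). Igfbp4 averaged 691 ± 83.3 CPM in Choroid Positive, 79.8 ± 16.5 CPM in Retina Positive and 265 ± 34.8 CPM in Brain Positive. All 3 pairs of tissues differed, at 3.13 ± 0.19 for Choroid over Retina, 1.54 ± 0.18 for Choroid over Brain and -1.59 ± 0.18 for Retina over Brain. Igf1r averaged 96.7 ± 20.6 CPM in Choroid Positive, below 197 ± 41.02 CPM in Retina Positive and 239.9 ± 2.88 CPM in Brain Positive (-1.03 ± 0.19, adjusted p = 7.13e-04 and -1.17 ± 0.19, adjusted p = 4.38e-04).

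Igf1 averaged 22.4 ± 11.7 CPM in Choroid Positive, 33.9 ± 6.49 CPM in Retina Positive and 13.3 ± 2.59 CPM in Brain Positive. Retina over Brain passed for Igf1 (1.48 ± 0.28, adjusted p = 0.00103) and the Choroid pairs did not (adjusted p = 0.0723 against Retina and 0.0779 against Brain). Choroid was called below Retina without Choroid Positive 2 (-1.05, adjusted p = 0.00843). It was called above Brain without Choroid Positive 3 (0.99, adjusted p = 0.0451) and by DESeq2's Wald test (0.74, adjusted p = 0.0443). For Igf1, Retina Input also lay above Brain Input (1.70 ± 0.15). The Retina minus Brain difference of Positive over Input did not pass (-0.35 ± 0.31, adjusted p = 0.426). The part of RNA from other cells in the Igf1 level of Retina Positive was not tested. Igf2r averaged 93.2 ± 39.4 CPM in Choroid Positive, 42.4 ± 2.26 CPM in Retina Positive and 51.5 ± 3.58 CPM in Brain Positive. Choroid was called above Retina (1.23 ± 0.25, adjusted p = 0.00126) and above Brain (1.09 ± 0.24, adjusted p = 0.00341). The Choroid and Brain libraries overlapped, as Choroid Positive 2 (47.7 CPM) lay below every Brain Positive library (48.6 to 55.5 CPM). Retina over Brain was -0.14 ± 0.23, adjusted p = 0.617, although the Retina libraries all lay below those of Brain on the common scale. This pair passed over the genes listed in both of these tables (-0.28, adjusted p = 0.0329).

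In the Input fractions the choroid carried the most of nearly all these transcripts. Choroid Input against Retina Input was higher for 9 of the 10 genes, beside 79.6% of genes called, 34.8% as higher. Choroid Input against Brain Input was also higher for 9, beside 73.7% called, 36.6% as higher and 37.1% as lower. Igf1r did not pass against Retina (-0.11 ± 0.11, adjusted p = 0.374) and Igfbp2 did not pass against Brain (0.45 ± 0.29, adjusted p = 0.180). Without Choroid Input 2 Igf1r was called lower than in Retina (-0.22, adjusted p = 0.0368), while over the better-expressed genes alone it was called higher (0.31, adjusted p = 0.0279). Igfbp2 was called higher than in Brain without Choroid Input 1 (0.77, adjusted p = 0.00259) and over the better-expressed genes (0.88, adjusted p = 0.0228). Igfbp5 averaged 4961 ± 1829 CPM in Choroid Input, 64.3 ± 3.47 CPM in Retina Input and 227 ± 14.6 CPM in Brain Input, and Igfbp4 averaged 1999 ± 600.0 CPM in Choroid Input, 54.6 ± 3.39 CPM in Retina Input and 101 ± 3.49 CPM in Brain Input. Retina Input against Brain Input was higher for Igf1 (1.70 ± 0.15) and Igf1r (1.48 ± 0.11) and lower for 7 genes, beside 67.4% called, 34.7% as higher and 32.8% as lower. Igfbp6 (-3.50 ± 0.25) and Igfbp3 (-2.58 ± 0.19) were the lowest of these relative to Brain.

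Divided by the length of their annotated exons, the levels can be set against each other within a group. In Choroid Positive, Igfbp7 came first with 2467 ± 197 CPM per kb and Igfbp3 second with 1270.5 ± 142 CPM per kb. Igfbp4, Igfbp6 and Igfbp5 followed at 156, 143 and 123 CPM per kb with overlapping ranges, and then Igf2, Igfbp2, Igf2r, Igf1r and Igf1, the last at 2.26. In Choroid Input, Igfbp5 (826 ± 305) and Igfbp7 (743 ± 114) led with overlapping ranges, ahead of Igfbp4 at 453 CPM per kb. In Retina Positive, Igfbp7 had 370.1 ± 199 CPM per kb and Igfbp3, the next, 26.7 ± 10.8. In Retina Input, Igfbp2 (23.6 ± 2.90) was first and Igfbp3 (0.900 ± 0.118) last.

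In Brain Positive, Igfbp7 (593 ± 62.6 CPM per kb) was followed by Igf2 (439.6 ± 65.6), Igfbp2 (422 ± 64.1) and Igfbp6 (374 ± 15.3), whose neighbouring ranges overlapped. In Brain Input, Igfbp2 (66.6 ± 10.5) and Igfbp6 (56.4 ± 4.68) overlapped at the top. With the longest coding transcript as length, chosen after seeing the data, Igfbp2 and Igfbp7 overlapped at the head of Brain Positive and the first gene of every other group was the same. Igf2 over Igf1 per kb was 12.4 ± 6.91 in Choroid Positive against 7.91 ± 1.95 in Choroid Input, 2.40 ± 0.793 in Retina Positive against 2.69 ± 0.216 in Retina Input, and 333 ± 67.1 in Brain Positive against 32.7 ± 3.50 in Brain Input (SD, n = 3 each). Igf1r over Igf2r per kb was 0.726 ± 0.540 in Choroid Positive against 1.37 ± 0.352 in Choroid Input, 2.56 ± 0.392 in Retina Positive against 2.26 ± 0.109 in Retina Input, and 2.59 ± 0.186 in Brain Positive against 0.837 ± 0.0369 in Brain Input. The receptor ratio was 0.475, 1.35 and 0.358 in Choroid Positive 1, 2 and 3, and its mean without Choroid Positive 2 was 0.416.

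The 6 binding protein genes made up different mixtures. Their summed level was 4177 ± 292 CPM per kb in Choroid Positive against 2394 ± 509 in Choroid Input, 439.7 ± 212 in Retina Positive against 69.6 ± 4.10 in Retina Input, and 1609 ± 124 in Brain Positive against 215 ± 9.39 in Brain Input. Igfbp7 held 59.1% ± 4.64 of the sum in Choroid Positive against 31.4% ± 2.99 in Choroid Input, 82.8% ± 4.24 in Retina Positive against 24.4% ± 2.69 in Retina Input, and 36.9% ± 2.60 in Brain Positive against 12.1% ± 1.24 in Brain Input. Igfbp3 held 30.4% ± 2.91 in Choroid Positive against 6.24% ± 0.0427 in Choroid Input, and from 1.29% to 6.21% on average in the fractions of the other tissues. Igfbp5 held 2.96% ± 0.452 in Choroid Positive against 33.7% ± 6.21 in Choroid Input. In Brain Positive the mixture was broader, with Igfbp2 at 26.2% ± 2.12 and Igfbp6 at 23.3% ± 1.60, against 30.9% ± 3.57 and 26.3% ± 2.44 in Brain Input. In Retina Positive, Igfbp2 held 4.05% ± 1.97 against 33.9% ± 3.47 in Retina Input. These shares are descriptions, and no test was made on them.

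**Figure D3:**
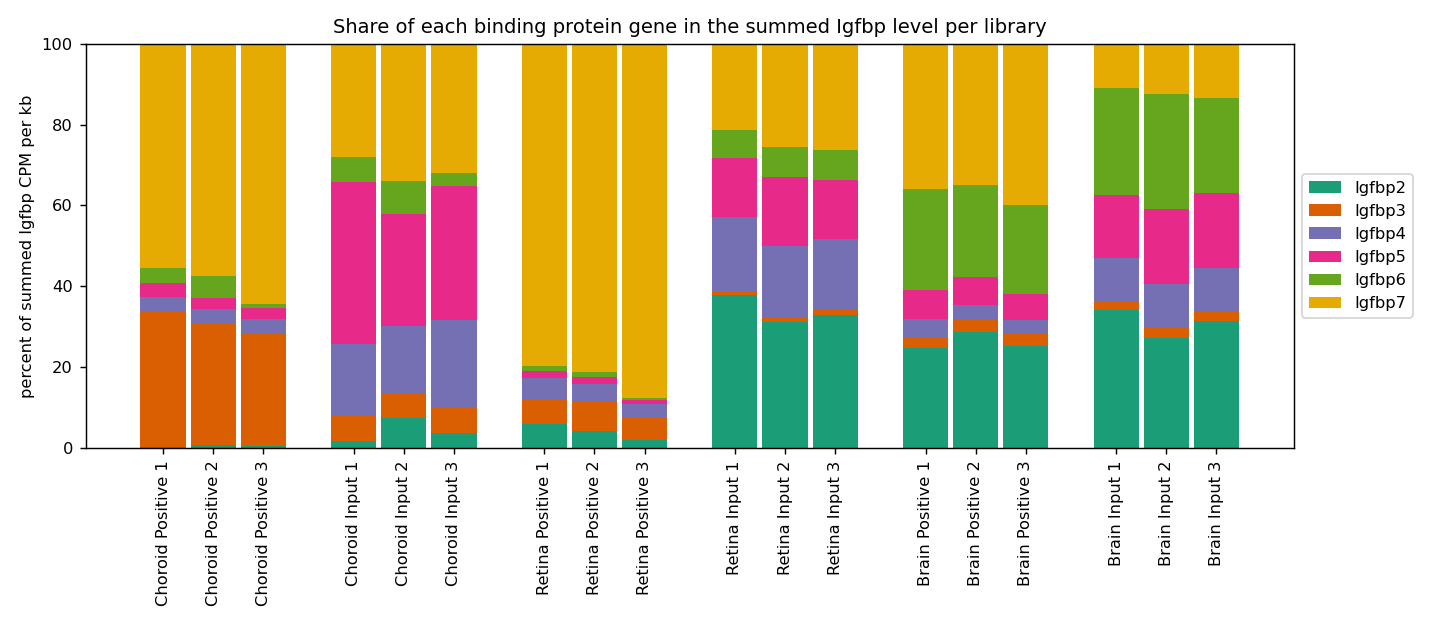
Share of each of the 6 binding protein genes in their summed CPM per kb of annotated exons (y axis, percent) in each of the 18 libraries (x axis). Igfbp7 takes 79.7% to 87.7% in the Retina Positive libraries and 55.5% to 64.4% in Choroid Positive, where Igfbp3 takes 27.8% to 33.5%.

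Markers of other cell types differed between the fractions, in different directions in the 3 tissues, and several lists had no call in Retina. The 8 listed of 9 fibroblast markers all fell in Choroid, where they summed to 446 to 807 CPM in Positive against 3706 to 4409.5 CPM in Input. Of the 9, 3 were listed in Retina, at sums of 9.35 to 13.1 CPM in Positive against 16.0 to 17.2 CPM in Input, and 2 of these fell. In Brain all 9 rose, to sums of 2447 to 3435 CPM in Positive against 161 to 171 CPM in Input. Mural cell markers summed to 172 to 240 CPM in Choroid Positive against 507 to 1028 CPM in Choroid Input (5 of 8 fell), and to 152 to 186 CPM in Brain Positive against 83.6 to 95.1 CPM in Brain Input (2 rose and 5 fell of 8). In Choroid the 4 listed markers of retinal pigment epithelium and the 5 of melanocytes all fell as well. The 4 listed genes of the choroid plexus list also fell there, and which cells of the eye carried them was not tested. In Brain, 2 of the 5 choroid plexus markers rose and 3 fell, and they summed to 201 to 412 CPM in Positive against 806 to 1134 CPM in Input. In Brain the 6 neuron markers fell, at sums of 2690.5 to 3135 CPM in Positive against 6425 to 6876 CPM in Input. None of the 5 photoreceptor markers passed the test in Retina, where they summed to 29866 to 50320.1 CPM in Positive against 33896 to 42358 CPM in Input, and all 5 fell in Choroid. Nor did any of the 5 mural or 2 oligodendrocyte markers listed in Retina pass there. Of the Retina lists, 2 of 6 astrocyte and Mueller glia markers and 4 of 6 neuron markers fell. Of the microglia markers 4 of 5 listed fell in Choroid, at sums of 81.9 to 139.7 CPM in Positive against 673 to 819 CPM in Input, all 5 listed fell in Retina, and in Brain 6 fell and 1 rose of 7. The part of these cells in the levels of the 10 genes was not tested.

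**Figure D4:**
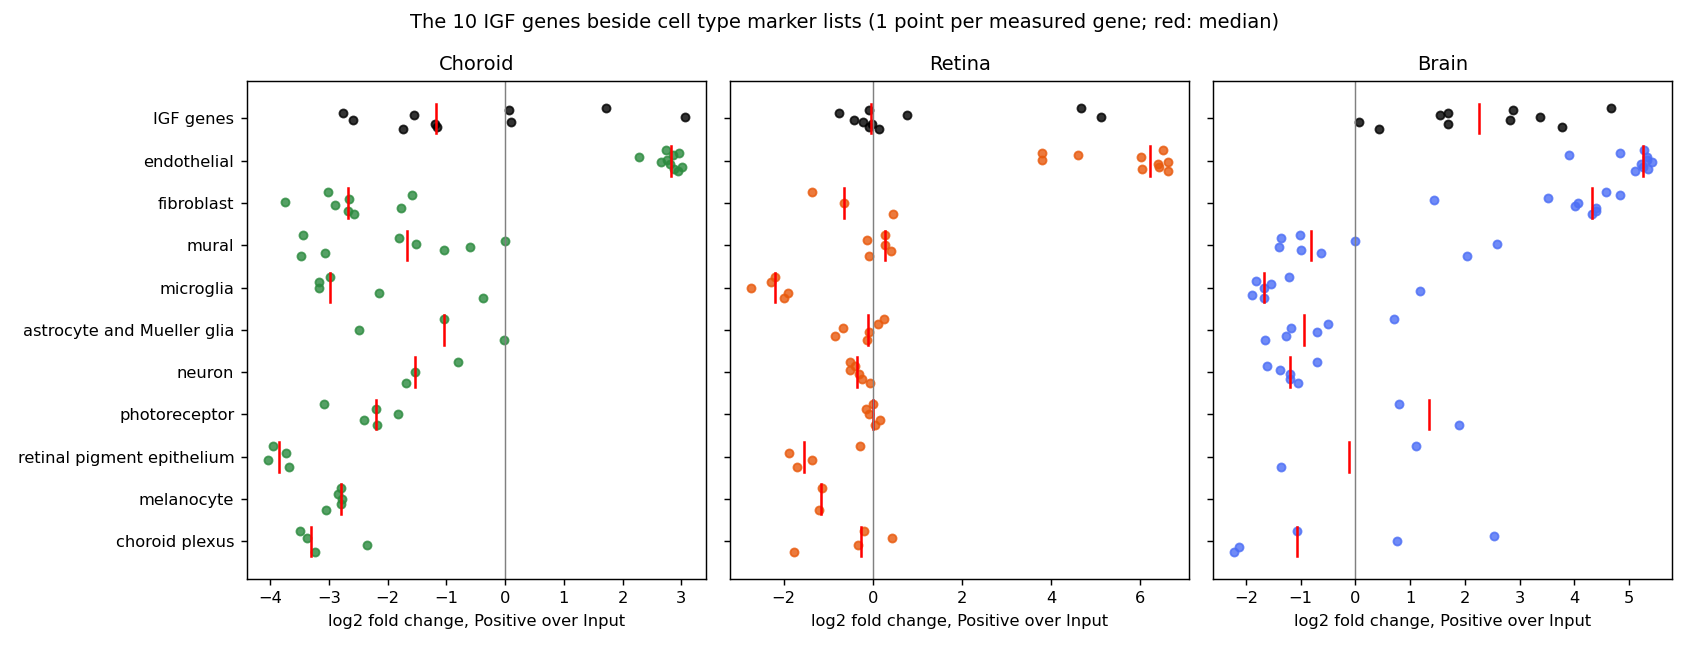
Log2 fold change of Positive over Input (x axis) of the 10 IGF genes (black points, top row) and of cell type marker lists (coloured points, 1 per measured gene) in Choroid, Retina and Brain, with red lines at the medians. The fibroblast median is -2.67 in Choroid, -0.65 in Retina and 4.33 in Brain, and the endothelial median is 2.83, 6.21 and 5.26.

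Some of the 10 genes were set against a marker list on the common scale, as descriptions, and the others are not shown. Of the summed level of 3 fibroblast markers listed in all tissues (Col1a2, Pdgfra and Slc6a13), Igf2 amounted to 66.3% ± 24.6 in Choroid Positive against 22.4% ± 5.60 in Choroid Input, with no overlap between the libraries. It was at 348% ± 102 in Retina Positive against 248.7% ± 25.9 in Retina Input, and at 168% ± 13.03 in Brain Positive against 177% ± 8.34 in Brain Input, with overlapping libraries in both tissues. The sum itself was low in Retina, at 13.4 ± 2.32 CPM in Positive and 22.2 ± 0.631 CPM in Input. How far it follows fibroblasts in each tissue was not tested. Igfbp6 was at 71.4% ± 41.3 in Choroid Positive against 10.7% ± 3.96 in Choroid Input of the same sum, at 34.97% ± 8.27 in Retina Positive against 25.1% ± 1.24 in Retina Input, and at 28.1% ± 4.57 in Brain Positive against 54.2% ± 7.005 in Brain Input. Its libraries did not overlap in any tissue, with Positive above Input in Choroid and Retina and below it in Brain. Igfbp2 and Igfbp5 were at 51.9% ± 2.21 and 44.5% ± 5.60 of the fibroblast sum in Brain Positive against 106% ± 19.9 and 195% ± 3.36 in Brain Input. In Choroid they were at 14.6% ± 5.90 and 357% ± 49.5 in Positive against 12.2% ± 5.74 and 360% ± 138 in Input. In Retina they were at 212% ± 19.4 and 247% ± 29.6 in Positive against 196% ± 20.8 and 290% ± 20.5 in Input. Igfbp3 amounted to 26.5% ± 4.44 of the sum of the 10 endothelial markers in Choroid Positive against 21.6% ± 1.33 in Choroid Input, 2.03% ± 0.191 in Retina Positive against 2.07% ± 0.453 in Retina Input, and 2.52% ± 0.501 in Brain Positive against 8.14% ± 1.37 in Brain Input. In Retina the Positive libraries, at 1.83%, 2.21% and 2.05%, were thus within the range of Input, at 1.55%, 2.38% and 2.27%, and Retina Positive 3 no longer stood apart. The Igfbp3 libraries of the fractions also overlapped in Choroid but not in Brain. Igfbp7 was at 19.9% ± 2.82 of that sum in Choroid Positive against 42.1% ± 6.09 in Choroid Input, 10.5% ± 1.46 in Retina Positive against 15.05% ± 3.12 in Retina Input, and 11.7% ± 1.74 in Brain Positive against 15.4% ± 2.22 in Brain Input. Its libraries overlapped between the fractions in Retina and Brain but not in Choroid.

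Across the 18 libraries, which share tissues and fractions and are not independent, some pairs of the 10 genes ran close together in log2 CPM. Pearson's r was 0.96 for Igfbp3 with Igfbp7, 0.93 for Igfbp4 with Igfbp5, 0.90 for Igf2 with Igfbp2 and 0.87 for Igf2 with Igfbp6. It was -0.03 for Igfbp2 with Igfbp3 and 0.02 for Igf1r with Igfbp7. Among the other 7269 genes, the 3 most like Igfbp3 were Nrp1 (0.99), Prss23 (0.99) and Fbln2 (0.99), and those most like Igfbp7 were Myct1 (0.99), Msrb3 (0.99) and Hspg2 (0.99). Igf2 was nearest to Nbl1 (0.97), Aebp1 (0.96) and Pard6g (0.95), and Igfbp2 to Isoc2a (0.97), Pcca (0.94) and Dgcr6 (0.94). Igfbp4 was nearest to Adamtsl4 (0.98), Npc2 (0.97) and Mlph (0.97), Igfbp5 to Hspa5 (0.98), Itgb5 (0.97) and Col8a2 (0.97), and Igfbp6 to Ppp1r14b (0.96), Ptgds (0.96) and Idh2 (0.96). The nearest to Igf1 were Scn7a (0.96), Pla2g5 (0.94) and Dusp4 (0.94), to Igf1r Hist1h2bc (0.91), Jmjd8 (0.90) and Hist2h2aa2 (0.89), and to Igf2r Ccbl2 (0.90), Gclc (0.88) and Erbb2ip (0.88).

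Beyond the 10 genes, 56 genes of the pathway were looked up: other ligands and carriers, receptors, proteases, adaptors, kinases, the Igf2 locus and proteins that share the IGFBP domain. In Choroid 38 were listed, of which 8 rose, 6 fell and 24 did not pass, beside the 36.6% called over all genes. In Retina 46 were listed, of which 14 rose, 6 fell and 26 did not pass, beside 26.1%. In Brain 48 were listed, of which 24 rose, 13 fell and 11 did not pass, beside 78.1%. Which fraction met the listing minimum was not checked for these genes. Listing through 1 fraction alone favours a call in its direction. The median log2 fold change of the listed genes was -0.02 in Choroid, 0.06 in Retina and 0.19 in Brain. Of the 34 genes listed in all tissues, 4 rose in each (Adamts1, Akt1, Cd93 and Foxo1) and 1 fell in each (Mtor), of which Akt1 is named after its values were seen. Over the 7270 genes that the tables share, 9.44% rose in each tissue and 2.1% fell in each, so these counts were near the background.

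Among the receptors, Cd93, an endothelial glycoprotein to which Igfbp7 binds, rose by 1.97 ± 0.24 in Choroid, 6.23 ± 0.39 in Retina and 5.03 ± 0.10 in Brain on the log2 scale (edgeR adjusted p = 5.18e-05, 5.12e-05 and 2.03e-10). The insulin receptor gene Insr rose in Choroid (1.71 ± 0.24) and Brain (0.77 ± 0.09), and gave 0.35 ± 0.15 in Retina (adjusted p = 0.116). Its relative Insrr rose in Brain (2.88 ± 0.24) and gave -0.65 ± 0.44 in Retina (adjusted p = 0.325). The endocytic receptor Lrp1 fell in Choroid (-2.88 ± 0.23, adjusted p = 4.88e-06), where M6pr, the cation-dependent mannose 6-phosphate receptor, was at -0.03 ± 0.23 (adjusted p = 0.927). In all, 2 of 4 listed receptors rose in Choroid, 2 of 6 in Retina and 5 of 6 in Brain, beside 16.3%, 15.3% and 38.3% of all genes called higher in Choroid, Retina and Brain.

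Of the listed proteases that cut binding proteins, and their inhibitors, 2 of 5 rose in Choroid, 3 of 7 in Retina and 4 of 5 in Brain, beside the same shares of all genes called higher. The lists differ in their measured genes, and no difference between tissues was tested for them. Stc1, an inhibitor of the pappalysins, rose in Choroid (2.47 ± 0.26, adjusted p = 2.20e-05) and Brain (1.60 ± 0.20), and Pappa2, a pappalysin, fell in Choroid (-3.01 ± 0.57, adjusted p = 0.00128) and was at -0.39 ± 0.17 in Retina (adjusted p = 0.133). Without Choroid Input 3 the Choroid value of Pappa2 was -2.08, adjusted p = 0.00766. Pappa, which cuts Igfbp4, was listed in Retina and Brain at -0.11 ± 0.30 and -0.07 ± 0.23 (adjusted p = 0.817 and 0.791). The serine protease gene Htra3 rose in Retina (3.31 ± 0.42) and Brain (3.43 ± 0.11). Adamts1, a metalloprotease of the matrix, rose by 1.68 ± 0.32 in Choroid, 1.01 ± 0.24 in Retina and 2.82 ± 0.20 in Brain. The Retina call of Adamts1 was lost without Retina Input 1, 2 or 3 (adjusted p = 0.0512 to 0.0743).

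The adaptor Shc1 rose in Retina (0.95 ± 0.18) and Brain (3.33 ± 0.09) and was at 0.53 ± 0.31 in Choroid (adjusted p = 0.207), with Sos1 rising in Choroid (1.21 ± 0.32) and Grb14 in Retina (1.22 ± 0.18). Grb2 was at -0.01 ± 0.23 in Choroid (adjusted p = 0.985). Irs1 and Irs2, the docking proteins of the receptor, were listed in Retina, where Irs1 fell (-0.58 ± 0.18) and Irs2 was at -0.45 ± 0.14 (adjusted p = 0.0512), and in Brain, where Irs2 (-0.69 ± 0.18) and Irs4 (-1.004 ± 0.27) fell and Irs1 was at -0.10 ± 0.10 (adjusted p = 0.350). The Retina call of Irs1 was lost without Retina Positive 2 or 3 or Retina Input 1, 2 or 3 (adjusted p = 0.0663 to 0.171). Irs2 passed in Retina by DESeq2's Wald test (-0.43, adjusted p = 0.0418) and without Retina Positive 3 or Retina Input 3 (adjusted p = 0.0214 to 0.0485). In the PI3K-AKT-mTOR arm 2 of 17 rose and 2 fell in Choroid, 4 rose and 4 fell of 18 in Retina, and 5 rose and 9 fell of 18 in Brain. Over all genes 16.3% rose and 20.2% fell in Choroid, 15.3% and 10.8% in Retina, and 38.3% and 39.7% in Brain. Foxo1, a transcription factor that AKT keeps out of the nucleus, rose by 1.73 ± 0.22, 0.72 ± 0.19 and 1.30 ± 0.08 in Choroid, Retina and Brain. Mtor fell by 1.09 ± 0.24, 0.60 ± 0.13 and 1.36 ± 0.10 in the same tissues, and Akt2 fell in Choroid (-1.65 ± 0.22). The catalytic subunit genes Pik3ca and Pik3cb passed in no tissue, at 0.31 and -0.96 in Choroid, -0.07 and 0.19 in Retina, and 0.11 and 0.01 in Brain. Pik3cb passed in Choroid without Choroid Positive 1 (-1.43, adjusted p = 0.0359), and Pik3ca passed in Brain with the authors' scaling factors (0.17, adjusted p = 0.0265). In Retina the call of Foxo1 was lost without Retina Input 1, 2 or 3 (adjusted p = 0.0711 to 0.0996) and that of Mtor without Retina Positive 1 or Retina Input 1 or 2 (adjusted p = 0.0503 to 0.0569).

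Of the proteins that share the IGFBP domain, Esm1, a proteoglycan secreted by endothelial cells, rose in Choroid (3.17 ± 0.25, adjusted p = 4.88e-06) and Brain (4.27 ± 0.27). Ctgf, a matrix protein of the CCN family, fell in Choroid (-0.64 ± 0.21), was at 0.66 ± 0.28 in Retina (adjusted p = 0.119) and rose in Brain (3.19 ± 0.09). Its relative Cyr61 rose in Retina (1.63 ± 0.36) and Brain (1.77 ± 0.20) and was at 0.08 ± 0.41 in Choroid (adjusted p = 0.903), Wisp1 fell in Retina (-0.999 ± 0.11) and Wisp2 rose in Brain (4.06 ± 0.43). Without Brain Input 3 the value of Wisp2 was 5.26, adjusted p = 8.30e-07. The Choroid call of Ctgf was lost without Choroid Positive 1, 2 or 3 or Choroid Input 1 or 3 (adjusted p = 0.0571 to 0.187), and in Retina Ctgf passed without Retina Positive 2 (0.92, adjusted p = 0.0207). The Retina call of Cyr61 was lost without Retina Input 2 or 3 (adjusted p = 0.0556 to 0.0637). The membrane protein gene Crim1 fell in Choroid (-1.47 ± 0.23). Over this list 1 of 5 rose and 2 fell in Choroid, 2 of 5 rose and 1 fell in Retina, and 7 of 8 rose in Brain, beside 16.3%, 15.3% and 38.3% of all genes called higher, and 20.2%, 10.8% and 39.7% called lower, in Choroid, Retina and Brain.

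At the Igf2 locus, H19, the imprinted RNA beside Igf2, was at -1.60 ± 0.68 in Choroid (adjusted p = 0.0871). It passed once replicate number was blocked (-1.81, adjusted p = 0.0198), with the authors' scaling factors (-1.72, adjusted p = 0.0467) and without Choroid Positive 2 (-2.72, adjusted p = 0.00216). Of the genes whose proteins bind Igf2 mRNA, Igf2bp1 was at -0.88 ± 0.49 in Choroid and Igf2bp2 at -0.38 ± 0.19 in Retina, and neither passed. Igf2bp3 fell in Brain (-0.69 ± 0.21), a call lost without Brain Input 3 (adjusted p = 0.0564). In Retina it was at -0.62 ± 0.30 and passed without Retina Positive 1 (-0.96, adjusted p = 0.0352). Of the remaining ligands and carriers only Igfbpl1 was listed, in Brain, where it fell (-0.98 ± 0.39), and that call was lost without Brain Positive 2 or 3 or Brain Input 1 (adjusted p = 0.125 to 0.160).

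**Figure D5:**
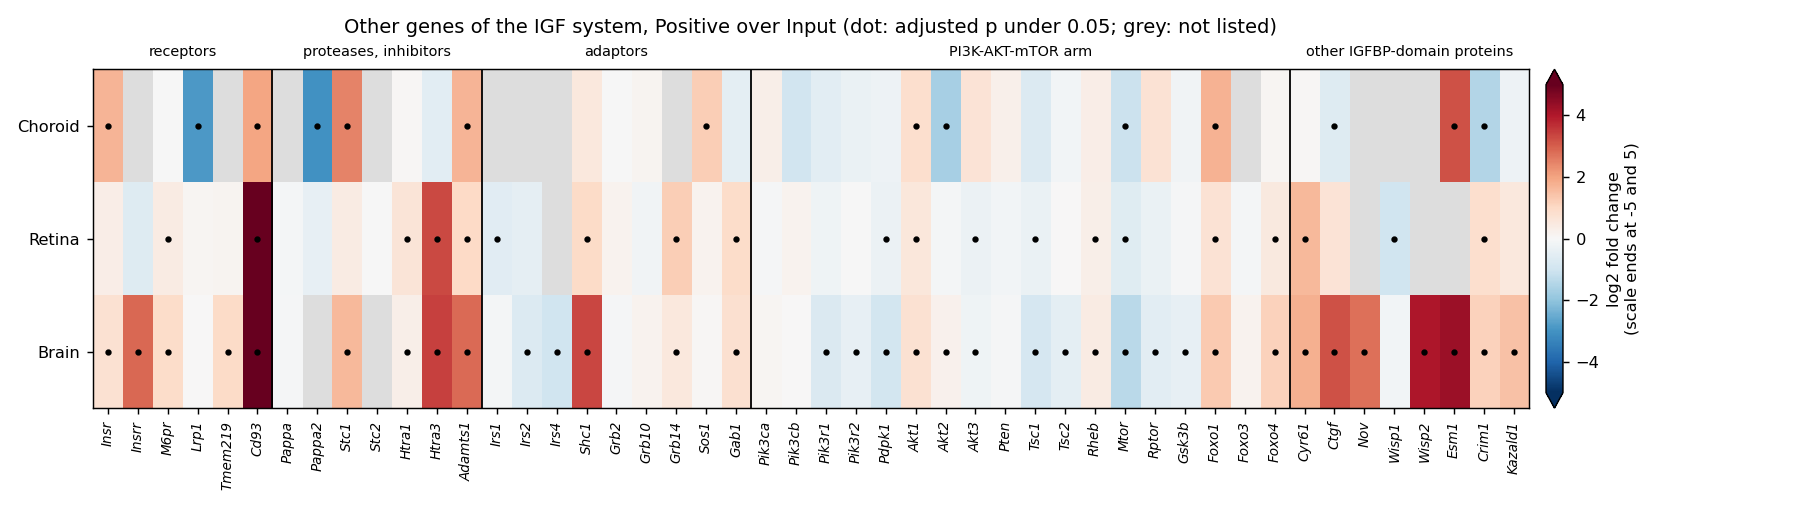
Log2 fold change of Positive over Input (colour, scale ending at -5 and 5) for other genes of the IGF system in 5 of the lists (columns, by list) in Choroid, Retina and Brain (rows). Dots mark an adjusted p under 0.05 and grey cells genes not listed in that table, and Cd93 is red with a dot in every tissue.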

How the data were processed

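RNA of 18 mouse libraries was measured by sequencing, in 6 groups of 3 given by the labels. The authors deposited 1 table per tissue with estimated counts per gene (raw columns, per the file headers), and a log2 value per library that, judged from its values, is relative to the median Input library of the gene. These log2 columns served only to recover the authors' scaling factors. A gene is listed, per the file headers, where all libraries of a fraction reached 50. The genome build mm10 and DESeq are named in the submitters' processing notes, and which aligner and counter were used is not given in the sources used here.

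Counts were rounded to whole numbers and scaled by TMM, and filterByExpr (minimum count 10) left every listed gene in. Differences were tested with edgeR 4.0.16 (quasi-likelihood F test, R 4.3.3), with p-values adjusted by Benjamini-Hochberg over all genes of the fit and a threshold of 0.05. The script was tested on simulated data. Positive against Input was fitted per tissue (6 libraries), its difference between tissues over 18 libraries, and levels between tissues over 9 libraries of a fraction, both over the 7270 genes listed in all 3 tables. Values after ± are the SE of a log2 fold change or the SD of a level. CPM values are scaled to the listed counts of a library within a table, or on the common scale to its counts in the shared genes. Exon lengths came from GENCODE M21 and promoters from RefSeq (GRCm38.p6), the same assembly as mm10. The 10 genes are all described, and of each pathway list the first 2 and the 2 of largest absolute log2 fold change are named. Genes most alike are those of highest Pearson's r in log2(CPM + 1) over 18 libraries. The members and lists were chosen with earlier results of these data known. The alternatives were DESeq2 1.42.0 (its size factors, or its Wald test), other filters and thresholds, the authors' factors, leaving out each library, and the replicate number as a block.

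The labels derive Positive and Input of 1 number from the same homogenate, so numbers pair within a tissue. The main fits did not use this pairing, which entered only through the replicate block. Deviations of such pairs from their group means correlated between -0.0281 and 0.297, above 0.1 for 8 of 9. Pairs of unlike number within a tissue ran from -0.353 to 0.178. Retina Positive 3 was closer to Retina Input 1 (0.178) than to Retina Input 3 (-0.0281). Whether a number also links tissues is not stated. Replicates of a group differed beyond counting noise (chi-square per degree of freedom at least 6.90). No source says that replicates were separate animals, so a p-value reflects library-to-library spread, which may be technical. The Choroid libraries were the shallowest.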

Additional observations from a re-analysis of the deposited data

Results flagged for a closer look

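These differences are listed because the Positive over Input log2 fold change of a gene differed between 2 tissues in the interaction fit of all 18 libraries (edgeR, adjusted p under 0.05). Choroid minus Retina was -1.72 for Igf1, -0.82 for Igf2, -0.95 for Igf1r, -2.03 for Igfbp2, -1.81 for Igfbp3, -2.09 for Igfbp4, -1.77 for Igfbp5 and -2.72 for Igfbp7. Choroid minus Brain was -2.07 for Igf1, -4.73 for Igf2, -2.72 for Igf1r, -5.32 for Igfbp2, -2.93 for Igfbp4, -4.29 for Igfbp5, -2.67 for Igfbp6 and -2.78 for Igfbp7. Retina minus Brain was -3.91 for Igf2, -1.76 for Igf1r, -3.29 for Igfbp2, -0.84 for Igfbp4, -2.52 for Igfbp5 and -3.03 for Igfbp6, and 1.69 for Igfbp3. Igfbp3 in Retina minus Brain was the one positive difference among them. Igfbp3 was listed in Retina through Positive alone, which favoured this direction and a negative value for Choroid minus Retina. Igfbp6 in Retina and Igf1 and Igfbp2 in Choroid were listed through Input alone, which favoured their negative differences. The Choroid minus Retina value of Igf2 and the Retina minus Brain value of Igfbp4 lost their calls without several single libraries. The median log2 fold change of the endothelial markers was 2.83 in Choroid, 6.21 in Retina and 5.26 in Brain. Fibroblast markers fell in Choroid and rose in Brain. The part of both lists in these differences was not tested.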

How the results depend on the processing

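Of the 2193 values of the 10 genes under alternative settings, 2087 kept direction and side of the threshold, 51 lost the call, 14 gained it and 41, none of them called in the main analysis, changed sign. The cause of these changes was not tested. The Positive over Input calls of Igfbp3 and Igfbp7 in each tissue kept their direction in every alternative run. The sign changes, in log2 units, were as follows. With DESeq2's size factors the values were 0.0108 for Igf1r in Retina, 0.00254 for M6pr and 0.0283 for Grb2 in Choroid, 0.156 for Igfbp7 in Retina minus Brain, 0.00990 for Igfbp3 in Choroid minus Brain, -0.0368 for Igf2r in Retina Input against Brain Input and 0.0232 for Igf1r in Choroid Input against Retina Input. DESeq2's Wald test gave 0.0103, 0.00334, 0.0309, 0.154, 0.00997, -0.0356 and 0.0179 for the same, and 0.0570 for Igfbp2 in Choroid Positive against Retina Positive. Over the better-expressed genes (at or above the median level) they were 0.00713 for Igf1r in Retina, -0.0807 for Igf2r and -0.106 for Igfbp6 in Choroid, 0.173 for Igfbp7 in Retina minus Brain, -0.0104 for Igfbp6 in Choroid minus Retina and 0.312 for Igf1r in Choroid Input against Retina Input. Over the genes listed in both tables of a pair they were 0.0546 for Igfbp7 in Retina minus Brain, 0.0160 for Igfbp3 in Choroid minus Brain, 0.0544 for Igfbp2 in Choroid Positive against Retina Positive, -0.0231 for Igf2r in Retina Input against Brain Input and 0.0523 for Igf1r in Choroid Input against Retina Input. With the replicate number as a block Igfbp6 was at -0.145 and Cyr61 at -0.103 in Choroid, and with the authors' factors Igfbp6 was at -0.000306.

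Leaving out 1 library moved values across 0 within these ranges: in Choroid -0.0800 to 0.366 for Igf2r, -0.452 to 0.527 for Igfbp6, -0.667 to 0.380 for Cyr61, -0.126 to 0.171 for Grb2 and -0.273 to 0.111 for M6pr. In Retina they were -0.190 to 0.0889 for Igf2, -0.218 to 0.108 for Igf1r, -0.283 to 0.135 for Pappa and -0.142 to 0.0253 for Pik3ca, and in Brain -0.281 to 0.0841 for Pappa and -0.0367 to 0.0551 for Pik3cb. Between tissues they were -0.600 to 0.155 for Igfbp7 in Retina minus Brain, -0.0975 to 0.829 for Igfbp6 in Choroid minus Retina and -0.374 to 0.302 for Igfbp2 in Choroid Positive against Retina Positive.

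The number of the 10 genes called lower in Retina was 1, and it was 2 with the replicate block, which adds Igfbp2, 0 at a log2 fold change of at least 1, and 1 to 2 without single libraries (2 without Retina Positive 1). Without single libraries 0 to 1 gene was higher in Choroid minus Brain and in Choroid minus Retina (Igf2r, without Choroid Positive 2). In Choroid Positive against Retina Positive 1 to 2 genes were lower (2 without Choroid Positive 2), and in Choroid Input against Retina Input 0 to 1 (1 without Choroid Input 2). Over the better-expressed genes 0 genes were higher in Retina Positive against Brain Positive and 1 in Retina Input against Brain Input, because Igf1 is not in that gene set; its call was kept in every alternative that tested it. The block changed no other call of the 10 genes.

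Over all genes, DESeq2's size factors moved the median log2 value by 0.22 for Retina minus Brain, 0.14 for Choroid minus Brain and 0.13 for Choroid Input against Retina Input. For Retina minus Brain 802 genes were higher and 1368 lower, against 1402 and 885 with those factors and 1773 higher by the Wald test. In Retina 1391 genes were lower, against 620, 513 and 884 without Retina Input 1, 2 and 3. Over the better-expressed genes alone, with fewer genes to call, there were 1064 higher and 888 lower in Retina, where the full table gave 1961 and 1391. At an adjusted p under 0.01 Retina had 1261 higher and 472 lower. Choroid Positive 2, the shallowest library, lay apart for Igf2r, and the part of depth in this was not tested.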
